A study of Mus musculus with 38 samples.

Results

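HGS2 is a mouse model of high-grade serous ovarian cancer in which HGS2 cells grow in the omentum, the fat apron of the abdomen. The tumors described here were those taken 21 days after the last of 3 doses of carboplatin and paclitaxel, called TP3, and the untreated tumors taken 14 days earlier, called TP2 controls. Membership followed the sample labels: TP3 treated replicates 2 to 4 (3 tumors) and TP2 control replicates 1 to 4 (4 tumors) gave 7 libraries of the 38 in the series, of which 34 are tumors. A further TP3 treated tumor, replicate 1, was not part of the study's own account and was used only as a check. All mice were C57BL/6J females, 8 to 9 weeks old when HGS2 cells were injected into the peritoneal cavity. Treatment began on day 49, with 1 dose a week of both drugs (carboplatin 20 mg/kg, paclitaxel 10 mg/kg), and controls received the vehicle. The treated tumors were collected on day 84 and the controls on day 70. TP1 controls and the treated tumors of TP1 and TP2 are cited below as context. TP1 was day 64, 1 day after the last dose, and TP2 was day 70, 7 days after it. No HGS2 control was available at TP3, so treatment and 14 days of growth cannot be told apart in any value below. The genotype of the HGS2 cells was not given in the sources used here, and all tumors came from this 1 line.

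Carboplatin crosslinks DNA and paclitaxel stabilizes microtubules, so both act most strongly on dividing cells. Transcripts of DNA replication and mitosis are made in bursts through the cell cycle, and their bulk level follows the number of cycling cells. An omental tumor also holds fibroblasts that deposit collagen, mesothelial cells that line the surface, adipocytes, vessels and the lymphocyte clusters of the omentum, and treatment can shift any of these. The comparison asked what remained different from untreated tumors 3 weeks after treatment ended. In bulk RNA, fewer cells of a type and less RNA per cell cannot be told apart.

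Many promoters of mitotic genes carry the sequence TTTGAA, the core of the cell-cycle genes homology region, close to a CCAAT box, read on either strand. The 120 bases before the start of 4 such genes (RefSeq, GRCm38.p6, written in the direction of transcription) are shown because these genes carry the mitotic values below, with matches to TTTGAA and CCAAT or their reverse complements TTCAAA and ATTGG in capitals.
Cdk1, chr10:69352913-69353032, minus strand: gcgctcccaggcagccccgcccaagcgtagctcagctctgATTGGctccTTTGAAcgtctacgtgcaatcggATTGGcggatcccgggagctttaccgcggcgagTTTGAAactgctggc
Cdc20, chr4:118437344-118437463, minus strand: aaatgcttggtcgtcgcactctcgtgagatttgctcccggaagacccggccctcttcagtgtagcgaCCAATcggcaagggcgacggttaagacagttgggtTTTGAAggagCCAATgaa
Ube2c, chr2:164769809-164769928, plus strand: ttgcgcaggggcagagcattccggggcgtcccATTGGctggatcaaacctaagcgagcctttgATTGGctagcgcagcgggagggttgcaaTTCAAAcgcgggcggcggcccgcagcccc
Kif11, chr19:37376262-37376381, plus strand: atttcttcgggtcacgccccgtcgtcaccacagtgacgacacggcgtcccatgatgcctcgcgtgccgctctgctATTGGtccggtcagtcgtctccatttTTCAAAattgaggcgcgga
TTTGAA lay between 250 bases before and 50 after the start in 15 of the 23 mitosis genes with a RefSeq promoter (65.2%), in 4 of 21 DNA replication genes (19.05%) and in 18.1% of 27025 promoters of all genes. CCAAT was found in 78.3%, 61.9% and 37.9% of the same groups. A match describes the letters in this window and not a bound site.

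The 7 libraries held 24519694 (control 3) to 49299442 (treated 3) expected counts. Ddx3y and Eif2s3y, Y-linked genes, were at 0 in all 7, as labelled for female mice. Pax8, a marker of Mullerian epithelium, did not exceed 0.0749 CPM (the count relative to the scaled library total), and Epcam, an epithelial adhesion molecule, ranged from 0.317 to 11.5 CPM in the controls and 1.22 to 6.44 CPM in the treated tumors. Wt1, a marker of serous tumors and of mesothelium, stood at 180 to 241 CPM in controls. Pancreatic RNA was uneven: Prss2, a trypsinogen of acinar pancreas, stood at 10473 CPM in control 2 and 4623 CPM in treated 2, and at no more than 93.1 CPM in the other 5 tumors.

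No gene separated the treated from the control tumors at the threshold used (adjusted p below 0.05 and more than a 2-fold difference). Of 16241 genes tested with edgeR's quasi-likelihood test, 0 were called (0%), the smallest adjusted p was 1, and 406 genes (2.5%) had an unadjusted p under 0.05, 257 higher (1.58%) and 149 lower (0.917%). With no difference in any gene, about 5% would fall under that p. The 406 became 199 without treated 3, 766 without treated 2 and 824 without treated 4, with 0 called in each. limma-voom called 0 genes (386 at an unadjusted p under 0.05) and DESeq2 called 5. DESeq2's calls were Slit2, Pth1r and Susd5 as higher and Lhx6 and Tubb4a as lower. A fit of both mouse models together called 3, of which 4930502E18Rik was higher and Lhx6 and Dnaaf1 were lower. The 95% interval of the difference lay inside a 2-fold change in either direction for 10118 of the 16235 genes with an interval (62.3%). For the remaining genes a difference beyond 2-fold was not excluded at this number of tumors. The p-values measure the spread between single tumors of separate mice.

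Distances over all genes did not separate the tumors by treatment. Distance was taken as 1 minus the Pearson correlation of log2 CPM over all genes tested. The 12 control-to-treated pairs had a mean distance of 0.0725 (range 0.0223 to 0.116). The 6 control pairs had a mean of 0.0768 (range 0.0466 to 0.127) and the 3 treated pairs 0.0894 (range 0.0645 to 0.121). The treated tumors were therefore not farther from the controls than tumors of a group were from each other, by a difference of -0.0085 (between minus within, exact one-sided permutation test over 35 divisions, p = 0.83, smallest possible 0.0286).

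**Figure D1:**
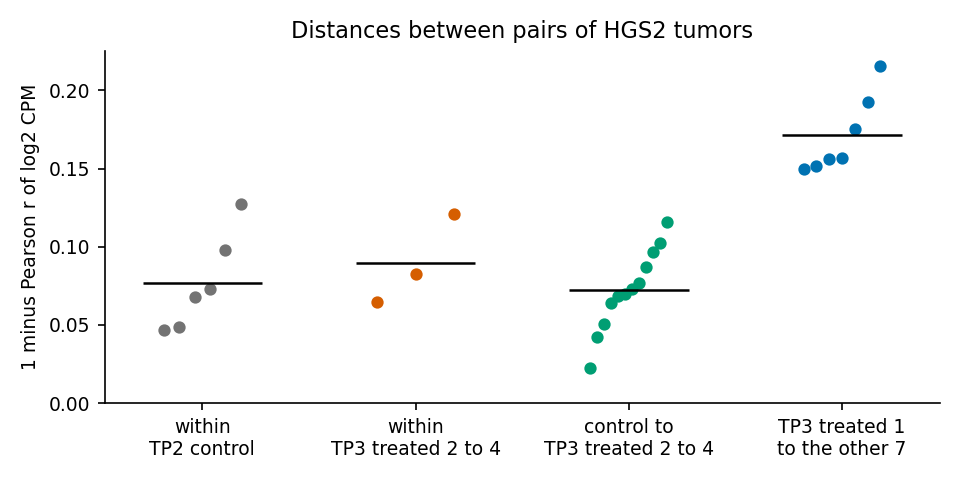
Distance (1 minus Pearson r of log2 CPM, vertical axis, no unit) for each pair of HGS2 tumors, by kind of pair, with a black line at each mean. The control-to-treated pairs (mean 0.0725) lie in the same range as the control pairs (mean 0.0768), while replicate 1 sits at 0.150 to 0.216 from each of the other tumors.

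Levels of cell-cycle genes in the treated tumors overlapped those of the controls 3 weeks after treatment. Over 3 lists (DNA replication, mitosis and replication-dependent histones) 75 members were tested, and 0 were called or had an unadjusted p under 0.05, beside 2.5% of all genes. Mki67, the proliferation antigen Ki-67, was at 215, 153, 328 and 224 CPM in controls 1 to 4, and at 246, 135 and 207 CPM in treated 2 to 4. These ranges overlap, with treated 3 lowest and control 3 highest. The log2 fold change was -0.23 with a standard error (SE) of 0.41 and a 95% interval from -1.11 to 0.65.

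The mitotic kinase Cdk1, whose promoter is printed above, was at 26.4, 13.1, 29.4 and 16.6 CPM in controls and 20.1, 19.3 and 20.2 CPM in treated tumors. All 3 treated values fell between the lower and the upper pair of controls, and the log2 fold change was -0.10 ± 0.46 (SE). Cdc20, an activator of the anaphase-promoting complex, gave -0.07 ± 0.50, Ube2c, its ubiquitin-conjugating enzyme, -0.35 ± 0.53, and Kif11, a spindle motor, -0.28 ± 0.45. Foxm1, a transcription factor of mitotic genes, was at 39.1, 27.1, 49.1 and 43.1 CPM in controls and 35.7, 28.3 and 31.7 CPM in treated tumors, again overlapping. Over the 28 mitosis genes the median log2 fold change was -0.22 and single values ran from -0.43 (Bub1b, a spindle checkpoint kinase) to 0.20, with 25 estimates below 0. The median over all genes tested was 0.0036.

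The replication genes lay closer to 0. Pcna, the sliding clamp of DNA polymerase, was at 75.1, 64.3, 107 and 79.4 CPM in controls and 71.0, 98.1 and 78.6 CPM in treated tumors, a log2 fold change of 0.02 ± 0.34. Every treated value fell inside the range of the controls. The 27 replication genes had a median of -0.07, with 20 intervals inside 2-fold, and the highest estimate was that of Ccne2, cyclin E2, at 0.42 ± 0.44. The 20 histone genes tested had a median of -0.04. In replicate 1 the mitosis list lay 1.60 below the control mean, and adding it took the list's median from -0.22 to -0.48.

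The same contrast in the other model gives a scale for these values. The 60577 model, in FVB females of the same age at injection, had 3 TP2 controls and 4 TP3 treated tumors. Its controls were collected on day 42 after injection and its treated tumors on day 56, after the same 3 doses. There edgeR called 2307 genes higher (14.2%) and 1659 lower (10.2%). Of the 75 cell-cycle genes, 69 were called lower in 60577, with list medians of -2.22 for replication, -2.85 for mitosis and -2.15 for histones. Cdk1 fell by 2.91 and Mki67 by 2.30 on the log2 scale there. The difference between the models was tested in 1 fit of 33 tumors. It called 954 genes higher in HGS2 (5.87%) and 1062 lower (6.54%), and 69 of the 75 cell-cycle genes were among those higher in HGS2 (Cdk1: difference 2.80 ± 0.55, edgeR adjusted p = 0.0014; Mki67: 2.07 ± 0.45, adjusted p = 0.0034). The HGS2 interval excluded the 60577 estimate for 74 of the 75, a count that takes the 60577 estimate as exact. Strain, cell line and day of collection differ between the models along with the response and cannot be told apart from it.

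**Figure D2:**
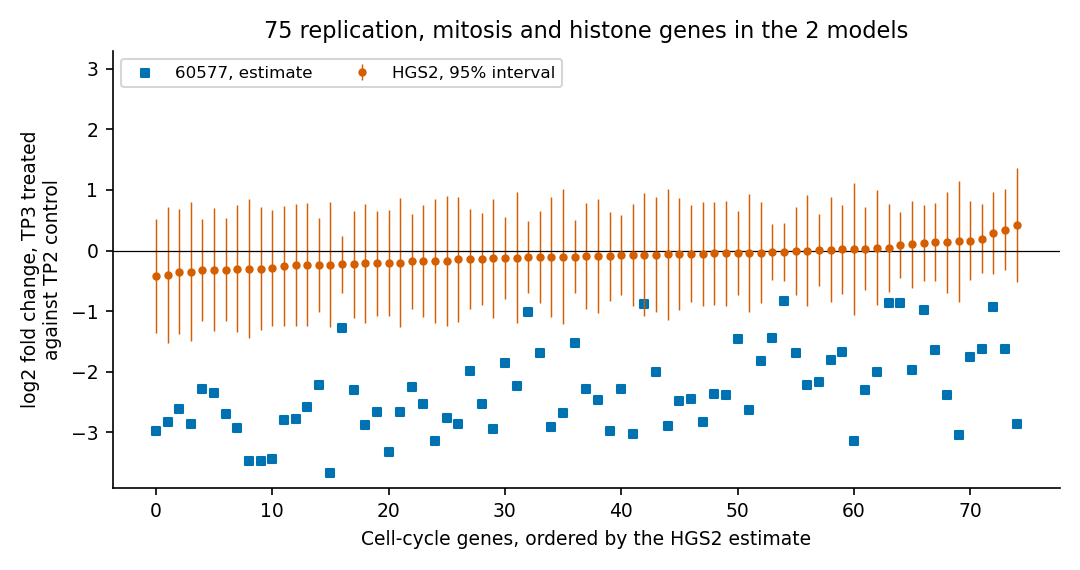
log2 fold change of TP3 treated against TP2 control tumors (vertical axis) for the 75 cell-cycle genes tested, ordered by the HGS2 estimate; orange points with bars are HGS2 estimates with 95% intervals and blue squares are 60577 estimates. The HGS2 points run between -0.43 and 0.42, and 74 of the intervals lie above the blue square of the same gene. The 60577 estimates are drawn without their intervals.

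Genes that carboplatin and paclitaxel act on or through had list medians near 0, and Cdkn1a and a single tubulin are described beside them. Of the 26 Trp53 target genes tested, 2 had an unadjusted p under 0.05 as higher and 1 as lower, with a median of 0.08. Over all genes tested these shares were 1.58% and 0.917%. Cdkn1a, the cell-cycle inhibitor p21, was at 12.2, 45.8, 33.3 and 28.2 CPM in controls and 33.9, 101 and 36.5 CPM in treated tumors. Only treated 3 lay above all controls, and the log2 fold change was 0.93 ± 0.42 (edgeR unadjusted p = 0.046). In treated tumors at TP2, 7 days after the last dose, Cdkn1a was at 78.2, 74.5 and 76.8 CPM, above every TP2 control. Ddit4, a stress-induced inhibitor of mTORC1, gave 1.01 ± 0.36 (edgeR unadjusted p = 0.016). It was at 37.3, 79.5, 48.5 and 59.5 CPM in controls and 66.9, 174 and 97.9 CPM in treated tumors, so the groups overlapped. Replicate 1 was inside the control range, at 52.3 CPM. The Ddit4 value in 60577 was -2.27, and the models differed by 3.27 (edgeR adjusted p = 0.0001). The lower member was Plk2, at -0.59 ± 0.21 (edgeR unadjusted p = 0.016).

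The 27 genes of platinum adduct and crosslink repair had a median of -0.03, the 13 BCL2 family genes 0.05, the 10 drug transporters -0.04 and the 18 NRF2 and glutathione genes -0.07, and 0 members of these 4 lists had an unadjusted p under 0.05. Among 15 tubulins and stathmins, the proteins of the microtubule on which paclitaxel acts, 12 estimates were below 0 and the median was -0.17. Tubb4a, a beta-tubulin best known from neural tissue (chr17:57080066-57087782, minus strand, GRCm38), was at 18.99, 24.9, 7.75 and 9.75 CPM in controls and 1.65, 0.991 and 1.64 CPM in treated tumors. The groups did not overlap, the log2 fold change was -3.43 ± 0.92 (edgeR adjusted p = 1), and replicate 1 was at 1.89 CPM. TP1 controls, untreated tumors 6 days younger than the TP2 controls, were at 0.798, 5.26 and 0.890 CPM, with 1 of the 3 above every TP3 treated tumor and the other two at or below 0.890 CPM.

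The genes with the smallest unadjusted p were picked by this same contrast, and their values are a description. Of the 10 higher and 10 lower protein-coding genes, 4 and 10 had groups that did not overlap. Over all genes tested, 199 lay above every control in all treated tumors (1.23%) and 282 below (1.74%). Slit2, a secreted guidance cue and ligand of Robo receptors (ENSMUSG00000031558, chr5:47983138-48307733, plus strand), was at 72.2, 56.5, 61.1 and 73.9 CPM in controls and 281, 297 and 101 CPM in treated tumors. All treated values exceeded all controls, replicate 1 was at 329 CPM, and the log2 fold change was 1.78 ± 0.39 (edgeR unadjusted p = 0.00043, adjusted p = 1). Untreated TP1 controls, at 123, 149 and 136 CPM, were above every TP2 control and above treated 4, and below treated 2 and 3. With them added to the controls the value was 1.24.

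Lhx6, a LIM homeobox transcription factor (chr2:36081953-36105408, minus strand), was at 32.9, 37.5, 23.6 and 28.7 CPM in controls and 6.37, 7.64 and 15.8 CPM in treated tumors. Here too the groups were apart, with a log2 fold change of -1.63 ± 0.37 and 9.75 CPM in replicate 1. The TP1 controls were lower than the TP2 controls, at 14, 22.9 and 8.19 CPM. Hdc, the enzyme that makes histamine, was at 1.69, 2.26, 4.09 and 3.11 CPM in controls and 0.805, 0.924 and 1.47 CPM in treated tumors, a log2 fold change of -1.38 ± 0.32. It was higher at TP2 under treatment, at 5.23, 5.08 and 5.70 CPM. Ptpn23, a phosphatase of endosomal sorting, gave -0.40 ± 0.12, and Ahsa2, a relative of an HSP90 co-chaperone, 0.47 ± 0.13, the smallest differences of the 20. Dnaaf1, a factor for ciliary dynein assembly, was under 0.4 CPM in all 7 tumors, so its ratio is not given.

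**Figure D3:**
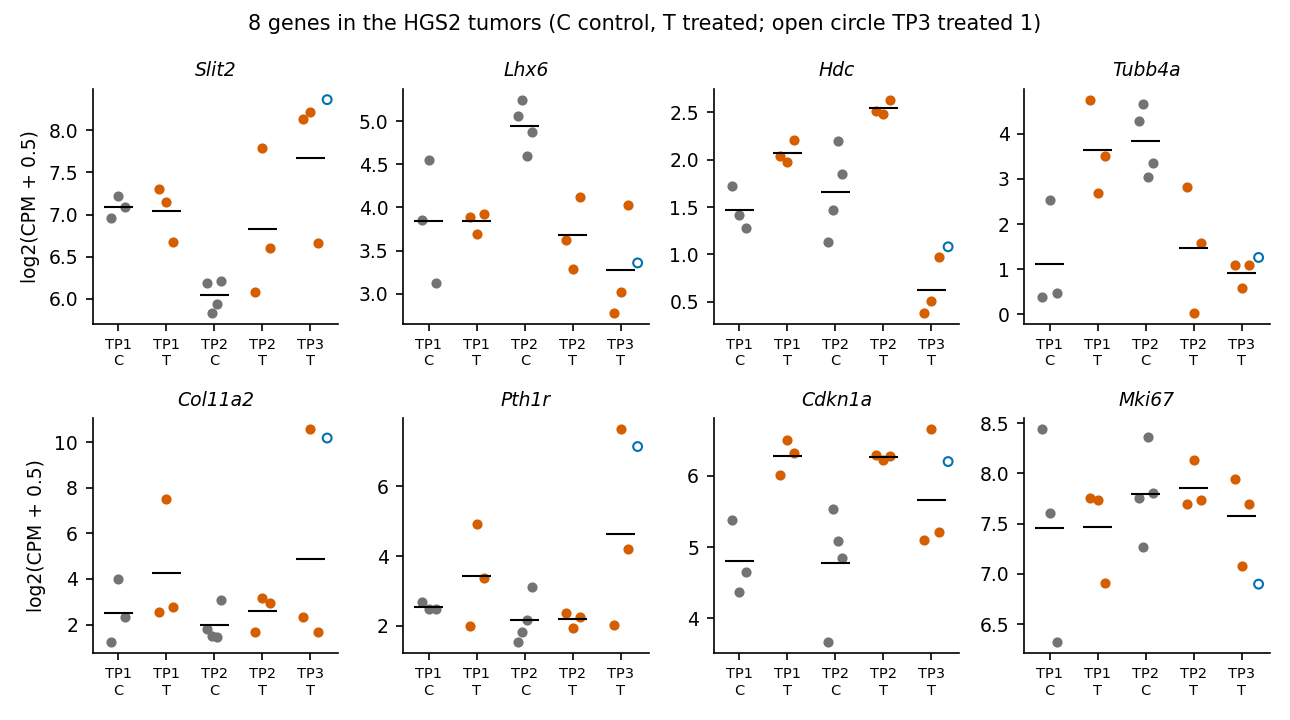
Level of selected genes as log2(CPM + 0.5) (vertical axis) in each HGS2 tumor by time point and treatment (C control gray, T treated orange), with black lines at group means and the blue open circle for TP3 treated replicate 1. Slit2, Lhx6, Hdc and Tubb4a keep TP2 controls and TP3 treated tumors apart, Col11a2 and Pth1r are high in treated 3 and replicate 1 and, at lower levels, in TP1 treated 2 (181 and 29.8 CPM), and Mki67 overlaps in all groups.

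Among treated 2 to 4, all 10 of the higher genes had their highest level in treated 3. Replicate 1 was above every control in all 10 and below every control in 8 of the 10 lower genes. Col11a2, a chain of the cartilage collagen XI (chr17:34039437-34066685, plus strand), was at 3.03, 2.34, 2.23 and 7.999 CPM in controls, at 1543 CPM in treated 3 and at 4.60 and 2.73 CPM in treated 2 and 4. Replicate 1 was at 1169 CPM and TP1 treated 2 at 181 CPM, with at most 15.6 CPM in the other TP1 and TP2 tumors. The log2 fold change of 7.05 ± 1.98 rested on 1 tumor and was -0.09 without treated 3. Pth1r, the parathyroid hormone receptor of bone and cartilage, was at 2.40 to 8.14 CPM in controls and 3.57, 199 and 17.8 CPM in treated tumors, with 29.8 CPM in TP1 treated 2, and its value of 4.06 was 1.28 without treated 3. Without it Wif1, a secreted Wnt inhibitor, went from 6.12 to 2.92 and Nmb, a bombesin-like peptide, from 2.64 to 0.30. Pard6g, a cell polarity adaptor, went from 2.19 to 0.70, and Susd5, a sushi-domain protein, from 5.26 to 2.73.

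Other genes known from bone or cartilage are given as single values, not as a tested group. Mmp13, a collagenase of cartilage and bone, was at 2.30 to 25.1 CPM in controls and 1.92, 1186 and 23.1 CPM in treated tumors, and TP1 treated 2 was at 241 CPM. Spp1, osteopontin, was at 26.9 to 169 CPM in controls and 149, 1756 and 251 CPM in treated tumors. High Spp1 was not particular to treated 3, since TP1 control 1, an untreated tumor, was at 1394 CPM, TP1 treated 2 at 957 CPM and TP2 treated 1 at 855 CPM. Alpl, the alkaline phosphatase of mineralizing cells, was chosen after its values were seen. It was at 257 CPM in treated 3, against at most 12.9 CPM in controls, and at 206 CPM in replicate 1. Treated 3 had 81 genes more than 4-fold above the highest control, treated 2 had 27 and treated 4 had 2. Controls 1 to 4 had 27, 216, 52 and 5 genes more than 4-fold above the highest of the other controls, a comparison with fewer tumors. Treated 3 and replicate 1 shared 45 of these genes, 55.6% of the former's 81 and 30.2% of the latter's 149.

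The matrix lists did not all lean the same way. Estimates were above 0 for 12 of 21 fibrillar collagen and processing genes and 11 of 20 proteoglycan and hyaluronan genes. They were below 0 for 15 of 18 basement membrane, 17 of 24 matrix protease and inhibitor, and 15 of 24 matricellular genes. Col1a1, the main chain of collagen I, was at 29565, 15270, 10212 and 22291 CPM in controls and 19260, 86683 and 18956 CPM in treated tumors. Treated 2 and 4 lay inside the control range and treated 3 far above it, giving 1.11 ± 0.62. The 21 fibrillar collagen and processing genes had a median of 0.06 and 0 had an unadjusted p under 0.05. Fn1, fibronectin, was at 11799, 5722, 8490 and 7513 CPM in controls and 4028, 4029 and 9000 CPM in treated tumors, with a log2 fold change of -0.56 ± 0.34. Treated 2 and 3 were below all controls and treated 4 was not.

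Vcan, the proteoglycan versican, gave -0.66 ± 0.41, from 1136, 507, 380 and 739 CPM in controls and 614, 375 and 323 CPM in treated tumors. Lox, lysyl oxidase, which crosslinks collagen, was at 839 to 956 CPM in controls and 569, 845 and 1472 CPM in treated tumors, so the treated tumors spread on both sides of the controls (0.08 ± 0.36). Its relative Loxl2 was at 811 to 975 CPM in controls and 360, 540 and 971 CPM in treated tumors (-0.53 ± 0.46). Lox and Loxl2 were called lower in 60577, by -1.39 and -1.66, and the models differed for Lox (edgeR adjusted p = 0.043) and not at the threshold for Loxl2 (0.155). Of 18 basement membrane genes 15 had estimates below 0, with a median of -0.35. The large proteoglycan Hspg2, perlecan, was the only member of that list at an unadjusted p under 0.05, with -0.47 ± 0.21. Over all genes tested 0.917% were lower at that p.

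Among 20 proteoglycan and hyaluronan genes 3 had an unadjusted p under 0.05, all higher, beside 1.58% of all genes in that direction, with a median of 0.07. Omd, osteomodulin, was at 0.520 to 2.96 CPM in controls and 3.49, 9.95 and 10.1 CPM in treated tumors. Comp, cartilage oligomeric matrix protein, from the list of matricellular glycoproteins, was at 2.89, 3.34, 4.09 and 8.75 CPM in controls and 10.2, 30.0 and 28.6 CPM in treated tumors. In both genes the groups did not overlap, and replicate 1 was above all controls, at 9.97 and 60.8 CPM. Itga8, an integrin chain of mesenchymal cells, was at 1.89 to 2.99 CPM in controls and 5.79, 4.53 and 5.32 CPM in treated tumors, a log2 fold change of 1.10 ± 0.35. Cnn1, the contractile protein calponin, was at 22.2, 6.61, 10.9 and 5.25 CPM in controls and 2.49, 2.03 and 2.97 CPM in treated tumors, with -2.17 ± 0.86. Each of these 4 had an edgeR adjusted p of 1.

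Mesothelial genes were lower in all 3 treated tumors than in any TP2 control when averaged, though 0 of 13 passed an unadjusted p of 0.05. The list's mean log2(CPM + 0.5), relative to the control mean, was -0.11, 0.24, -0.22 and 0.09 in controls and -1.11, -0.24 and -0.48 in treated tumors. Treated 3 was only just below control 3, and replicate 1 was at -2.61. The untreated TP1 controls were at -4.12, -0.05 and -3.08, so 2 of them lay below every treated tumor, and the TP2 treated tumors averaged -1.18 ± 0.29 (SD, n = 3). Muc16, the antigen CA125, was at 212, 360, 243 and 288 CPM in controls and 35.3, 160 and 139 CPM in treated tumors. Lrrn4, a mesothelial membrane protein, was at 384, 418, 252 and 325 CPM in controls and 190, 176 and 159 CPM in treated tumors. Wt1 was at 241, 240, 181 and 180 CPM in controls and 90.4, 109 and 162 CPM in treated tumors. The groups did not overlap for any of these, yet the fits gave -1.30 ± 1.10, -0.98 ± 0.96 and -0.80 ± 0.54. Groups did not overlap for 4 of the 13 genes, beside 1.74% of all genes tested that lay below every control. HGS2 cells in culture carried Lrrn4 at 618 and 460 CPM and Wt1 at 270 and 263 CPM. All 13 genes of the list were at 1 CPM or more in both cultures, so these transcripts are shared by the cancer cells. What part of the list's level came from mesothelium was not tested. The list's median was -0.48, and -0.12 with the TP1 controls added.

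Of 51 lists only mesothelial cells and the tubulins and stathmins had a mean level that kept the TP3 treated tumors apart from the TP2 controls, both lower. Among all genes tested, 1.74% lay below every control in all treated tumors and 1.23% above. With random labels a list would lie wholly below in 1 of the 35 divisions of the 7 tumors. A count of 2 in 51 therefore does not set these lists apart. The tubulin groups were nearly touching, at -0.11 in control 2 and -0.16 in treated 4 relative to the control mean. The TP1 controls spanned them, at 0.50, 0.0041 and -1.02. Of the 15 tubulins and stathmins tested, only 1, Tubb4a at -3.43, kept the groups apart by itself. The list's mean without Tubb4a was not taken, so a fall shared by the other members is not shown. Adipocyte genes differed by tumor and not by group. Adipoq, the fat hormone adiponectin, was at 0.247, 1.34, 13.4 and 8.78 CPM in controls and 11.9, 1.69 and 5.11 CPM in treated tumors, a difference of 0.07 ± 1.46. The 21 adipocyte genes had a median of 0.07, and 0 had an unadjusted p under 0.05. In 60577 all 21 were called higher, with a median of 6.71, and all 21 were called in the difference between models. Replicate 1 was at 104 CPM of Adipoq, and the HGS2 median was 2.36 with it added.

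**Figure D4:**
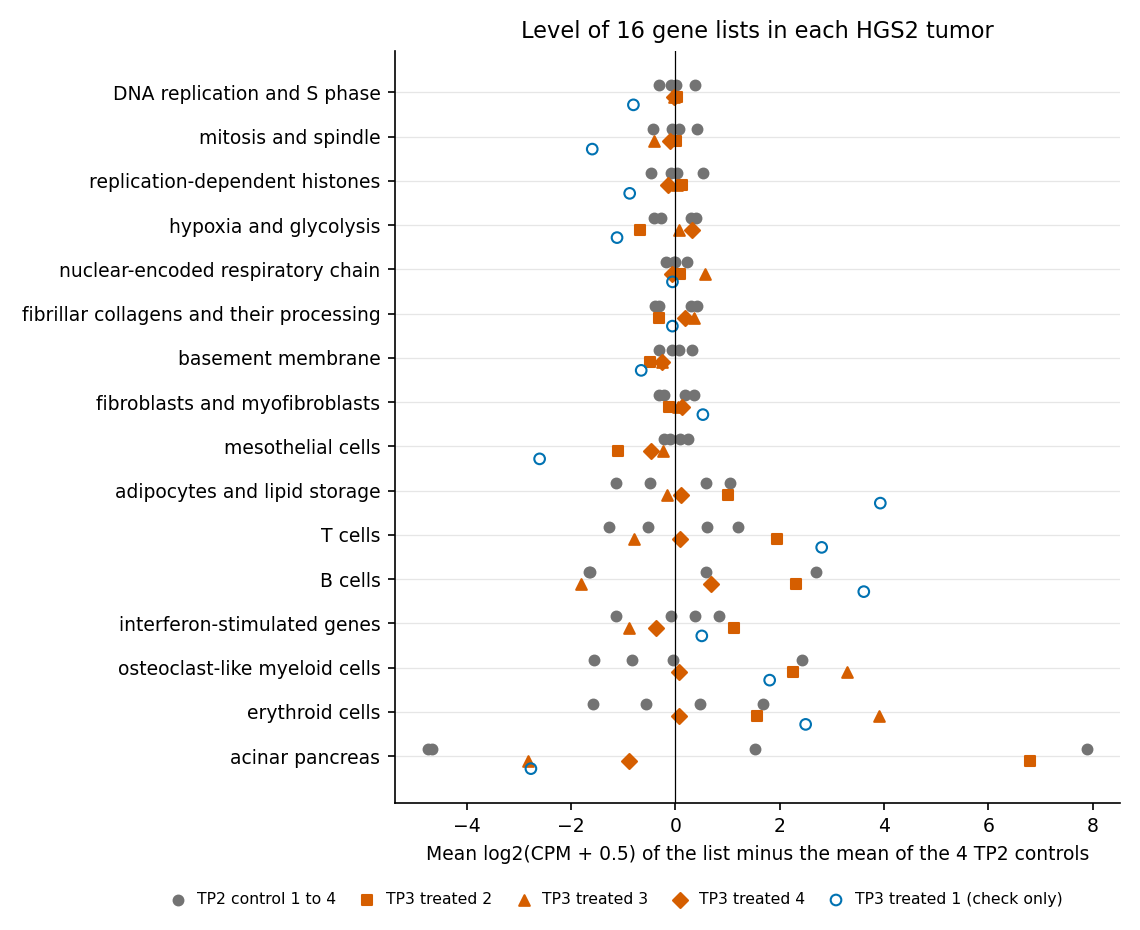
Mean log2(CPM + 0.5) of each gene list minus the mean of the TP2 controls (horizontal axis) in single HGS2 tumors; gray circles are controls, orange symbols TP3 treated 2 to 4 and blue open circles replicate 1. Cell-cycle lists fall within 0.53 of the control mean in all 7 tumors, lymphocyte and pancreas lists spread widely in both groups, and replicate 1 lies outside the others for mitosis, mesothelial, adipocyte and B cell genes.

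Lymphocyte genes spread as widely within groups as between them. The mean log2(CPM + 0.5) of the B cell list, relative to the control mean, was -1.64, -1.65, 2.701 and 0.59 in controls and 2.31, -1.81 and 0.68 in treated tumors. Control 3 and treated 2 were richest in B cell RNA, and controls 1 and 2 and treated 3 were poorest. The 18 B cell genes had a median of 0.08, and -1.36 without treated 2. For T cells, Cd3e, a chain of the receptor complex, was at 3.49, 0.668, 11.9 and 7.75 CPM in controls and 19.5, 0.991 and 5.11 CPM in treated tumors. It was lowest in control 2 and treated 3 and highest in control 3 and treated 2. All 23 T cell estimates were above 0 with a median of 0.60, 0 had an unadjusted p under 0.05, and without treated 2 the median was -0.81. Ccl21a, a chemokine of lymphoid stroma, was at 141 CPM in treated 2 and at most 1.35 CPM in the other 6. In 60577, 22 of the 23 T cell genes and 18 of the 18 B cell genes were called higher, and 6 of each were called in the difference between models.

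Treated 2 and control 2 were also the tumors with the most acinar pancreas RNA (list level 6.80 and 7.89 above the control mean). Leaving out both, a choice made after the data were seen, gave medians of -1.08 for T cells, -1.74 for B cells and -0.22 for mesothelial cells, and 0 genes called by edgeR (720 at an unadjusted p under 0.05). The part of pancreatic or lymphoid tissue in these values was not tested. Il10, an inhibitory cytokine, was at 0.740, 1.04, 1.24 and 0.607 CPM in controls and 0.422, 0.176 and 0.280 CPM in treated tumors, with 2.12 CPM in replicate 1. Its groups did not overlap (-1.64 ± 0.53), but replicate 1 was above all of them.

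Osteoclast-type and erythroid genes were highest in treated 3. The 9 osteoclast-type genes all had estimates above 0, with a median of 1.77 that was 0.61 without treated 3 and 3.53 without control 3, and 0 had an unadjusted p under 0.05. Ctsk, the bone-resorbing protease cathepsin K, was at 51.8, 82.1, 943 and 161 CPM in controls and 783, 2488 and 148 CPM in treated tumors. Acp5, the acid phosphatase of osteoclasts, was at 37.1, 62.5, 543 and 97.9 CPM in controls and 407, 1821 and 104 CPM in treated tumors. Control 3 and treated 2 reached similar levels in both genes. The 5 erythroid genes had a median of 2.27. Of them 4 had an unadjusted p under 0.05, all higher, beside 1.58% of all genes. Relative to the TP2 control mean, the list was at 1.56, 3.91 and 0.07 in treated 2 to 4. Untreated TP1 controls were at -0.56, -0.49 and 2.11, the last above treated 2 and 4. Hbb-bs, adult beta-globin, was at 19.4, 41.9, 10.3 and 112 CPM in controls and 119, 600 and 38.0 CPM in treated tumors. The list's median was 0.59 without treated 3, and the amount of blood in each sample was not measured.

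Energy metabolism genes also had list medians near 0. Of 23 nuclear-encoded respiratory chain genes 22 had estimates above 0, with a median of 0.20. In 3 the unadjusted p was under 0.05, all higher, beside 1.58% of all genes. Cox6c, a subunit of cytochrome oxidase, was at 25.2, 21.6, 23.5 and 22.6 CPM in controls and 23.7, 39.2 and 34.3 CPM in treated tumors. Treated 3 and 4 were above all controls and treated 2 was not, and the list's median was -0.02 without treated 3. The 22 hypoxia and glycolysis genes had a median of -0.07 against -1.996 in 60577, where 18 were called lower. In the difference between models 15 were called higher in HGS2.

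Against treated tumors at TP2, 14 days earlier after the same doses, edgeR called 0 genes at TP3 (0%), limma-voom 0 and DESeq2 105, and 826 genes were higher (5.09%) and 864 lower (5.32%) at an unadjusted p under 0.05. Their total of 1690 became 667 without TP3 treated 3, 923 without TP2 treated 2 and 2484 without TP3 treated 2, with 0 called in each. This contrast shares the TP3 tumors with the one above. The 26 interferon-stimulated genes, induced by type I and II interferon, had a median of -1.85 with 23 at an unadjusted p under 0.05 and 0 called by edgeR. Relative to the TP2 controls their mean level was 1.73 ± 0.98 (SD, n = 3) in TP2 treated tumors and -0.05 ± 1.05 (SD, n = 3) at TP3. The untreated TP1 controls were at 1.00 ± 0.42 (SD, n = 3), with 2 of them above every TP2 control. In single TP3 tumors it was 1.12, -0.90 and -0.36, with treated 2 above and the others inside the control range of -1.14 to 0.84. MHC class I genes gave -1.07 (9 of 15 at an unadjusted p under 0.05), MHC class II genes -1.27 (7 of 12) and leukocyte chemokines -1.34 (11 of 23), while against the TP2 controls the same lists had medians of -0.05, -0.50 and -0.10. Between TP2 and TP1 controls edgeR called 0 genes (569 at an unadjusted p under 0.05), limma-voom 0 and DESeq2 7.

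Most lists had a median nearer to 0 in HGS2 than in 60577. The median lay between -0.5 and 0.5 in 39 of the 51 lists in HGS2 and in 14 in 60577, and 45 lists had a median farther from 0 in 60577. The 6 exceptions were erythroid (2.27 in HGS2 against -1.55), osteoclast-type (1.77 against 0.21), hepatocyte, basement membrane, respiratory chain and integrin genes. Of 806 distinct genes tested in these lists 33 had an unadjusted p under 0.05 in HGS2, beside 2.5% of all genes. Both shares are under the 5% that would be there with no difference in any gene. Of the 3966 genes called in 60577, 1806 were also called in the difference between models. The HGS2 interval excluded the 60577 estimate for 3034. That count takes the 60577 estimate as exact, for genes picked by a large difference there, and is not a test.

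**Figure D5:**
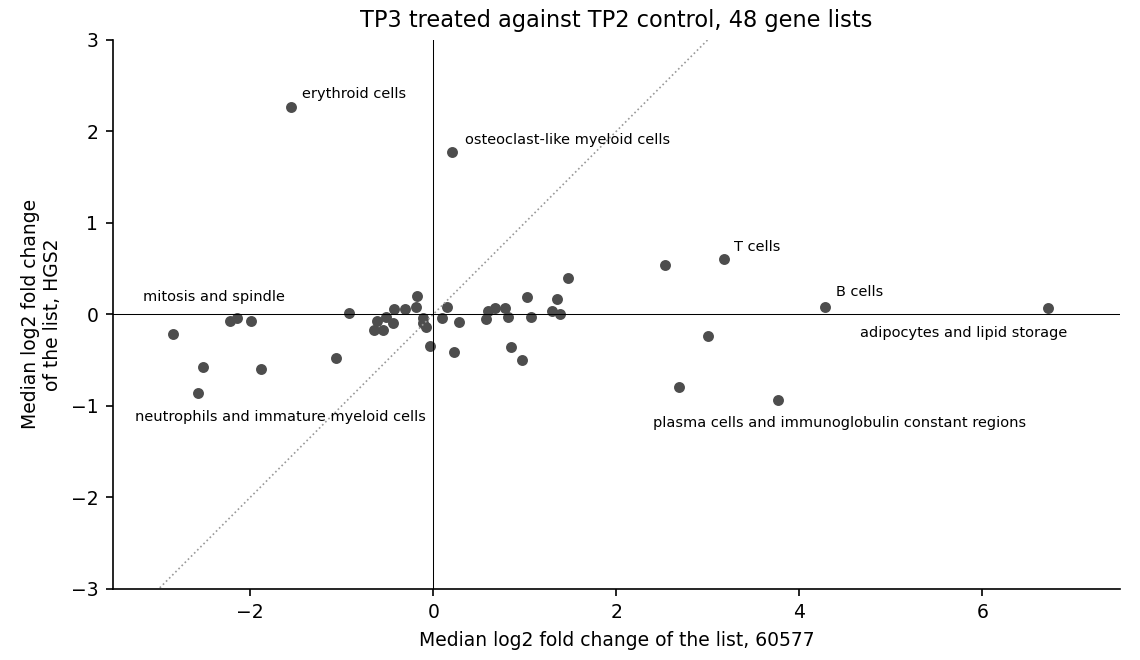
Median log2 fold change, TP3 treated against TP2 control, of each gene list with at least 5 genes tested, in 60577 (horizontal axis) and HGS2 (vertical axis); the dotted line marks equal values. Most points lie near 0 on the vertical axis while they span -2.85 (mitosis) to 6.71 (adipocytes) on the horizontal axis.

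Adding replicate 1 to the treated group gave 0 genes called by edgeR (760 at an unadjusted p under 0.05). It lay above all 7 other tumors in 16 of the 51 lists and below all in 14, at a mean distance of 0.171 from them. Krt8, a keratin of the epithelium that HGS2 cells carried at 71.5 and 155 CPM in culture, was at 6.45 to 170 CPM in controls, at 17.6 to 31.3 CPM in treated 2 to 4 and at 0 CPM in replicate 1. Its own library was the shallowest of the tumors, at 17839635 counts.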

How the data were processed

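RNA was sequenced from snap-frozen omental tumors as ribosome-depleted, strand-specific, paired-end libraries. The authors trimmed reads and aligned them to GRCm38, and the deposited values are RSEM expected counts per gene, not normalized; the submitters' processing notes name Trim Galore 0.6.5, STAR 2.7.0f and RSEM. Of 55487 genes in the table, 55227 had a GENCODE entry, which supplied symbols and coordinates, and 260 had none.

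Expected counts were rounded to whole numbers, and genes with at least 1 CPM in 25% of the 33 tumors were tested (16241, of which 13926 are protein coding). All 5 HGS2 groups (16 tumors) were fitted together with edgeR 4.0.16 (TMM, quasi-likelihood test, two-sided, Benjamini-Hochberg over all genes tested) in R 4.3.3. The difference between models came from 1 fit of 10 groups. Genes were called at adjusted p below 0.05 and absolute log2 fold change above 1. Intervals are 95%, levels are TMM-scaled CPM or log2(CPM + 0.5), and fold changes are written ± SE. limma 3.58.1 (voom) and DESeq2 1.42.0 were alternatives, with other scalings, filters, a length and GC offset, a replicate block and each tumor left out. The scripts were tested on simulated data. The exact permutation test, distances and plots used Python 3.11.15.

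Named genes were those called with groups apart; since 0 qualified, the 10 protein-coding genes with the smallest unadjusted p in each direction were named, with up to 4 members per list by unadjusted p, Mki67, Pcna, Col1a1, Fn1, Vcan, Lox and Loxl2, and up to 5 genes per direction of the difference between models. A few items are not reported here. Other genes named are list members, markers or were chosen after their values were seen. The comparison, lists and rule were chosen with earlier results of these data known. No library was a copy of another (smallest chi-square per degree of freedom 43.1). Intervals cover sampling of these tumors only. Near-identical gene copies, such as histones and globins, can share reads.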

Additional observations from a re-analysis of the deposited data

Results flagged for a closer look

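Of the groups of tumors tested for a distant value, 1 of 78 held a tumor far from the others: the NRF2, glutathione and metallothionein list in the TP2 controls, where control 2 stood 0.25 above the control mean and the gap to the others was 0.969 of the group's range. Chance gives about 1 such group in 20.

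The HGS2 and 60577 differences between TP3 treated and TP2 control tumors were not the same for the following genes, picked as the smallest p in each direction of the tested difference (edgeR, HGS2 minus 60577 on the log2 scale). Higher in HGS2 were Slc16a3, a lactate exporter (3.35, adjusted p = 7.3e-05), Baiap2l1 (2.59), Lockd (3.35) and Mboat1 (2.29). For Slc16a3 the HGS2 value was -0.28 and the 60577 value -3.64. Lower in HGS2 were Acaca, the acetyl-CoA carboxylase of fatty acid synthesis (-2.66, adjusted p = 1.68e-05), Tcp11l1 (-2.14), Fyco1 (-1.85), Zfp300 (-4.49) and Ly9, a lymphocyte surface receptor (-2.996). For Acaca the HGS2 value was -0.15 and the 60577 value 2.51.

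TP3 treated replicate 1, which entered the comparison only as a check, lay above the highest of the other 7 tumors by 2.87 on the log2 scale for the adipocyte list and by 1.15 for endocrine pancreas, a list with 1 gene tested.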

How the results depend on the processing

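Large estimates went uncalled by edgeR with 3 and 4 tumors per group. Col11a2, at a log2 fold change of 7.05, and Tubb4a, at -3.43, had an edgeR adjusted p of 1. The Col11a2 value was -0.09 without treated 3. What part the spread between tumors had in the number of calls was not tested. The count of genes called between TP3 treated and TP2 control tumors was 0 by edgeR under every scaling, filter, offset and left-out tumor tried, 5 by DESeq2 and 3 with both models in one fit. Against TP2 treated tumors DESeq2 gave 105 genes and the fit of both models 1. Between the controls DESeq2 gave 7, and leaving out 1 tumor gave 0 to 49, the last without TP1 control 2. For the difference between models (2016 genes, 954 higher in HGS2), leaving out 1 tumor gave 1289 (without 60577 TP2 control 2) to 2743 (without TP3 treated 2); the length and GC offset gave 2343, with 1337 higher and 1006 lower, and adding replicate 1 gave 1358. The cause was not tested. The distance difference ran from -0.0149 to 0.0015 with 1 tumor left out, positive without TP3 treated 4.

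Same-numbered deviations correlated at 0.297, -0.104 and 0.151 for replicates 2, 3 and 4, and 2 of 3 treated tumors correlated best with their own number. Control 2 and treated 2 are the tumors with the most acinar pancreas RNA. With 3 pairs these values cannot show whether replicate numbers pair the tumors. With the replicate block edgeR called 0 genes (285 at an unadjusted p under 0.05), and 1820 in the difference between models. Of 250 genes followed, 91 had a change of sign under some setting. The 9 named genes of the difference between models kept their direction and call in all 216 values.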

Other observations

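Median expression by chromosome was level across these tumors with few exceptions. Of 140 values (20 chromosomes in 7 tumors, each the median deviation of log2 CPM from the control mean), 3 exceeded 0.25 in size: chromosome 15 in TP3 treated 4 (0.39), chromosome 19 in TP3 treated 2 (-0.40) and chromosome X in control 2 (-0.31).

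The tumors also differed singly in genes of lymphoid and macrophage stroma. Marco, a scavenger receptor of marginal zone and peritoneal macrophages, was at 48.6 CPM in treated 2 and at most 2.16 CPM in the other 6 tumors of the comparison. Ccl19, a chemokine of T cell zones, was at 11.96 CPM in treated 2, at most 1.24 CPM in the other 6 and at 11.1 CPM in replicate 1. Il12rb2, a chain of the IL-12 receptor, was at 0.282, 0.0742, 1.10 and 0.429 CPM in controls and 1.34, 4.86 and 1.36 CPM in treated tumors, with groups that did not overlap, a log2 fold change of 2.42 ± 0.81 and an edgeR adjusted p of 1.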
